A study of Mus musculus with 3 samples.

Results

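Six-family genes encode homeodomain transcription factors, and Eya genes encode coactivators that join them in nuclear complexes and also carry a phosphatase domain. The 9 genes described here were Six2, Six3, Six4, Six5, Six6, Eya1, Eya2, Eya3 and Eya4, out of 21883 protein-coding genes on the primary chromosomes of the mouse. They were chosen by their names together with the binding sites found around them in these same data, so that every count, position and score below is a description and no test was made on it. A gene's domain was taken as the gene itself and the gap to the next protein-coding gene on either side, with a limit of 1 Mb per gap that none of the 9 genes reached. A site between 2 genes belongs to both domains.

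Six-family proteins bind DNA directly, while Eya proteins lack a DNA-binding domain of their own and reach their targets through Six-family partners. Upstream Pax factors and Dach cofactors belong to the same network, which is known from the eye of the fruit fly and, in vertebrates, from kidney, ear, muscle and craniofacial development. In the limb, genes of this network are known from migrating muscle precursors and from connective tissue and tendon. Six3 and Six6 are best known from the forebrain and the eye, and Six2 from the progenitor cells of the nephron.

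The sites came from chromatin immunoprecipitation with sequencing (ChIP-seq) on the hindlimb buds of CD1 mice, wild-type embryos at stage e11.5 (the embryonic day), with no transgene or treatment named for either group. Tbx4, a T-box factor of the hindlimb, was pulled down with a homemade antibody (1695a), and Hoxc10, a homeodomain factor of the posterior body, with the Abcam antibody ab153904. A Hoxc10 sample with a Santa Cruz antibody was not analysed here. Each factor has 1 list of peak summits, 4780 for Tbx4 and 1614 for Hoxc10, so nothing below has a replicate error. Judging by its name, the Hoxc10 list may be limited to Abcam sites that lie near Santa Cruz peaks, at most 200 bp away. The score beside each summit is the authors' MACS2 value, a −log10 of a p-value or q-value, and it was read only within its own list. Read depth is unknown, and no expression was measured, so neither the tissue label nor the activity of a bound gene could be checked. A bud holds mesenchyme, ectoderm, vessels and muscle precursors, and the cells that carried each site were not told apart.

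Tbx4 sites lay in the domains of 8 of the 9 genes and Hoxc10 sites in those of 4. Of all protein-coding genes, 17.2% had at least 1 Tbx4 site and 6.83% at least 1 Hoxc10 site in a domain built the same way. Every gene with a Hoxc10 site, Six4, Eya1, Eya2 and Eya4, also had Tbx4 sites. This is common, since 1095 of the 1495 genes with a Hoxc10 site among all protein-coding genes had a Tbx4 site too. Co-bound pairs, defined as a Tbx4 and a Hoxc10 summit within 200 bp, were found at 3 genes, Six4, Eya2 and Eya4, while 2.66% of all genes had one. The 9 genes were picked with these counts known, so nothing is read from the distance to the background. In all, 34 Tbx4 and 9 Hoxc10 sites lay in these domains, and no site was counted for 2 of the genes.

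**Figure D1:**
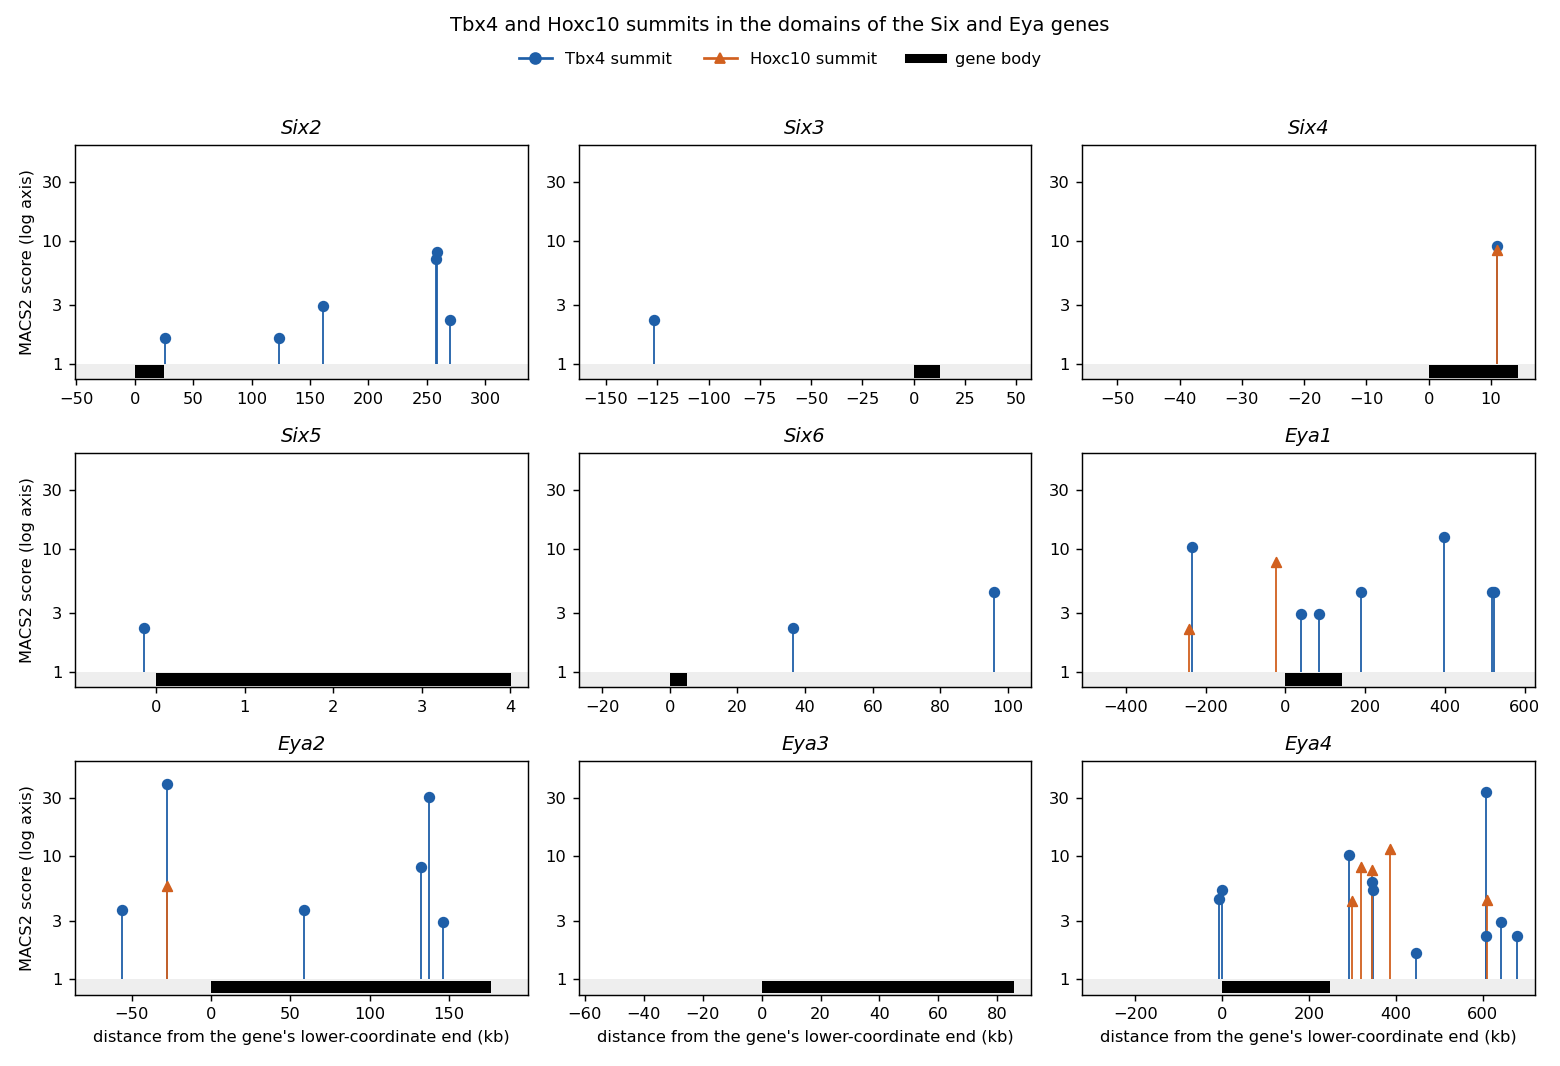
Tbx4 summits (blue circles) and Hoxc10 summits (orange triangles) in the domain of each gene, by distance from the gene's lower-coordinate end in kb (x axis) and MACS2 score (log y axis); the black bar is the gene. Sites of Eya4 and Six2 lie mostly outside the gene, 4 of the 6 Tbx4 sites of Eya2 lie inside it, and Eya3 has none.

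Sequence could be shown for 3 of the Tbx4 sites. The sequences come from the promoter table of RefSeq (GRCm38.p6, the same assembly as mm10), which has entries for 7 of the 9 genes and none for Eya1 and Eya2. They are printed 5′ to 3′ to show what lies under the sites nearest to annotated starts, and the capitals mark the 11 bases centred on the Tbx4 summit. The first is the stretch of chromosome 17 upstream of the Six2 start, chr17:85688255-85688551 on the minus strand, read towards Six2. Its summit scored 1.63 and lay 256 bp upstream of Six2. It also lay 16 bp inside the long noncoding RNA gene CJ186046Rik, which starts there in the opposite direction. The second is the 250 bases upstream of Six5, chr7:19094294-19094543 on the plus strand, whose summit scored 2.26 and lay 139 bp from the Six5 start. The third is the window of 81 bases around a site in the far upstream gap of Eya4, chr10:23711647-23711727, given on the plus strand. It scored 2.26 and lay 200 bp from the end of the long noncoding RNA gene Gm35291 at which transcription starts.
Six2 upstream: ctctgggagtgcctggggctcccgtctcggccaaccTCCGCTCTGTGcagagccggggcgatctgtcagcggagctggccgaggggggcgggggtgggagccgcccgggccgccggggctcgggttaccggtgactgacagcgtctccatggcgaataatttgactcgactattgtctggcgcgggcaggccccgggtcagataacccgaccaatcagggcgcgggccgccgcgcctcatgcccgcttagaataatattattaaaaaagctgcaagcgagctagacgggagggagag
Six5 upstream: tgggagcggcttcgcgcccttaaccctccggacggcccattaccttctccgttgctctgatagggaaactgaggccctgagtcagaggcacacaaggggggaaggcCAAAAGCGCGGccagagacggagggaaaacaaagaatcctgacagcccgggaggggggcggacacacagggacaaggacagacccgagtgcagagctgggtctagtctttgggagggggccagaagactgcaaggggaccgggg
Gm35291 upstream: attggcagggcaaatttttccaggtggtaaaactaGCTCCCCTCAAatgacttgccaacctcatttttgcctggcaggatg

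None of the motifs searched on both strands was present in these 3 stretches. For T-box factors the searched letters were GGTGTGA and the partly overlapping AGGTGT. For posterior Hox factors they were TTTATGG and also TTTATTG, together with TTTACGA as well as TTTATGA. The homeodomain core TAATTA was searched too, as was the MEF3 sequence TCAGGTT bound by Six-family factors. Of the 32815 promoter windows of 300 bases in the table, 16.1% held at least 1 of the T-box sequences, 11.0% a posterior Hox sequence, 5.30% TAATTA and 4.07% TCAGGTT. The table fully covered 81-base windows around 194 Tbx4 summits of the whole list, and 6.70% of those held a T-box sequence. In windows of the same length from the middle of all promoters the share was 4.50%. A missing match says nothing about whether the factor binds. The MEF3 sequence was found in the promoter windows of 2 of the genes themselves, Six4 and Six6, neither of which had a summit in that window. The 3 printed stretches, of 297, 250 and 81 bases, had a GC content of 65.7% (Six2), 62.8% (Six5) and 46.9% (Gm35291). In the 81-base windows centred on the same summits it was 70.4%, 59.3% and 46.9%. The median of the 194 covered Tbx4 windows of that length was 64.2%.

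Six2 lies at chr17:85662736-85688254 and had 6 Tbx4 sites and 0 Hoxc10 sites. All 6 lay upstream, in the gap of 296 kb towards Srbd1, and none lay inside Six2 or on the side of Six3. From the gene outward they scored 1.63 at 0.256 kb, 1.63 at 98.0 kb, 2.94 at 135.5 kb, 7.14 at 231.9 kb, 8.12 at 233.1 kb and 2.26 at 244.2 kb. The site next to the gene start was thus among the lowest of the list, where 94.0% of sites score higher. The highest pair, at 85920120 and 85921398, was 1278 bp apart, lay inside the long noncoding RNA gene Gm30117 and was closer to Srbd1 (64.5 and 63.3 kb) than to Six2. Of the Tbx4 list 18.4% scored higher than the site of 8.12. Only 0.836% of all genes had 6 or more Tbx4 sites. Six2 has a long domain of 358 kb, a length that 12.7% of genes reach.

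Six3, the neighbour of Six2 and a regulator of forebrain and eye formation, had a single Tbx4 site. It lay 126.7 kb from the gene towards Camkmt, at 85486940 of chromosome 17, and was nearer to Camkmt (28.4 kb). Its score of 2.26 is exceeded by 77.8% of the list. The gap of 36.5 kb between Six3 and Six2 held no site of either factor.

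Six4, known together with its relatives for the formation of muscle precursors, was the only Six-family gene with a co-bound pair. The Tbx4 summit at 73110546 of chromosome 12 scored 9.15 and the Hoxc10 summit 35 bp away, at 73110581, scored 8.43. Both lay inside the gene (chr12:73099609-73114031). They were 2.70 and 2.66 kb downstream of 1 annotated Six4 start and 2.88 and 2.84 kb downstream of the other. Mnat1, a gene for a subunit of the CDK-activating kinase, overlaps the upstream part of Six4, and its nearer end lies 1639 and 1604 bp from these summits. The gap of 52.9 kb on the other side of Six4 held no site. In the Tbx4 list 15.8% of sites scored higher, and in the Hoxc10 list 43.9%, so the pair ranked higher for Tbx4.

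Six6, a factor of the eye and the pituitary, had 2 Tbx4 sites and no Hoxc10 site. They lay 31.5 and 90.9 kb downstream of the gene, at 72976405 and 73035832 of chromosome 12, with scores of 2.26 and 4.46. The outer of them was only 5995 bp from the next protein-coding gene, and so is closer to that neighbour than to Six6. Six5, which adjoins the myotonic dystrophy kinase gene Dmpk, had the shortest domain, 4.73 kb, and 1 Tbx4 site, the one whose sequence is given above. This site counts for Dmpk too, since it lies in the gap of 722 bp between them. Of all genes with a domain under 100 kb, the class of Six5 and Six4, 8.19% had a Tbx4 site and 1.21% a Hoxc10 site.

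Eya1, which is needed for the kidney and the ear, had the longest domain, 1051 kb between Xkr9 and the muscle repressor gene Msc. It held 7 Tbx4 and 2 Hoxc10 sites, none of them co-bound. Inside the gene (chr1:14168953-14311035) were 2 Tbx4 sites, at 14207583 and 14253065, both with a score of 2.94. Between Eya1 and Msc were 4 Tbx4 sites, with scores of 4.46 at 46.8 kb, 12.42 at 256.3 kb and 4.46 at both 376.3 and 380.6 kb from Eya1. The last 2 were nearer to Msc, at 66.0 and 61.7 kb. The site of 12.42, at 14567345, was the highest of the gene, and 10% of the list scored higher.

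On the Xkr9 side of Eya1 the remaining Tbx4 site scored 10.21 at 13936110, which is 232.8 kb from the gene. A Hoxc10 summit with the low score of 2.2 lay 7.90 kb from it, at 13928210, and 98.0% of the Hoxc10 list scored higher. The other Hoxc10 site, at 14146212, lay 22.7 kb from Eya1 and scored 7.72, the median of the list. Its nearest Tbx4 summit was 61.4 kb away, so at Eya1 the factors had separate sites.

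Eya2, a coactivator also known from the limb and from muscle, held the highest Tbx4 score of the 9 genes. That site was at 165567021 of chromosome 2, 28007 bp outside the gene (chr2:165595028-165771727) in the gap towards Slc2a10, and scored 38.86. Only 1.23% of the Tbx4 list scored higher. A Hoxc10 summit lay 9 bp away, at 165567030, the closest pair among these genes. Its score of 5.69 was modest, with 64.3% of the Hoxc10 list above it, so the pair ranked near the top of the Tbx4 list only.

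Inside Eya2 were 4 Tbx4 sites, more than inside any other of the 9 genes. They scored 3.67 at 165653731, 8.12 at 165727619, 30.28 at 165732752 and 2.94 at 165741379. The site of 30.28 is exceeded by 2.36% of the list and its nearest Hoxc10 summit was 165722 bp away. Its neighbour of 8.12, 5133 bp away, lay 22 bp inside an end of the long noncoding RNA gene Gm29993, which is nested in Eya2. The last Tbx4 site of the domain scored 3.67 and lay 56.1 kb outside Eya2, nearer to Slc2a10 (19.0 kb). With 6 Tbx4 sites in 264 kb, or 2.27 per 100 kb, Eya2 had a higher density than the larger domains of Eya1 (0.666) and Eya4 (1.04).

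Eya4, known from the ear and the heart, had the most sites of both factors, 10 Tbx4 and 5 Hoxc10 sites in 965 kb between Tcf21 and Rps12. Only 0.192% of all genes had 10 or more Tbx4 sites and 0.256% had 5 or more Hoxc10 sites. The gene (chr10:23102962-23350838) is read towards Tcf21. Only 2 of its sites lay at its downstream end: a Tbx4 site of 5.3 inside the gene, 0.92 kb from that end, and another of 4.46 at 6.81 kb beyond it. The other 8 Tbx4 sites and all 5 Hoxc10 sites lay upstream, in the 434 kb towards the ribosomal protein gene Rps12. The body of Eya4 apart from that end held no site, in contrast to Eya2.

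The nearer group of upstream sites of Eya4 held both factors. Going outward, a Tbx4 site of 10.21 lay 43.5 kb from the gene, followed by Hoxc10 sites of 4.37 at 51.4 kb and 8.23 at 73.0 kb. Then came the co-bound pair at 98.3 kb, a Hoxc10 summit of 7.72 at 23449146 and a Tbx4 summit of 6.19 at 23449206, 60 bp apart. A second Tbx4 summit of 5.3 followed 1196 bp on. The group ended with the Hoxc10 site of 11.45 at 138.4 kb (23489257), the highest Hoxc10 score of all 9 genes, for which 28.1% of the list scored higher. The nearest Tbx4 summit to this site was 38855 bp away.

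The outer group of Eya4 lay at the start of the long noncoding RNA gene Gm35291, 360 kb from Eya4 and 74.0 kb from Rps12. The Tbx4 summit at 23711192, 295 bp inside Gm35291, scored 33.08, which 1.95% of the list exceeds. A weak Tbx4 summit of 2.26 followed 495 bp on, outside Gm35291, at the window printed above. The Hoxc10 summit at 23712146, with a score of 4.43, lay 459 bp from the weak and 954 bp from the strong Tbx4 summit. At a distance of 459 bp it is the nearest case beyond the limit of 200 bp, and the pair at 60 bp is the widest within it. Single Tbx4 sites of 1.63, 2.94 and 2.26 stood at 198.3, 393.4 and 430.9 kb, the last of them 3456 bp from Rps12.

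**Figure D2:**
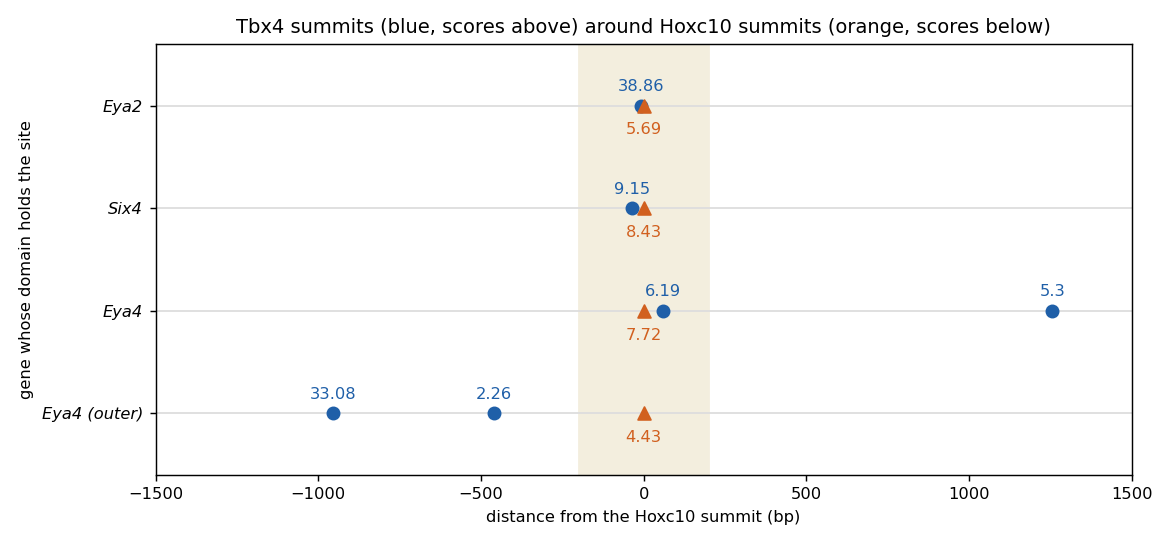
Positions of Tbx4 summits (blue) relative to 4 Hoxc10 summits (orange, at 0), in bp, with the MACS2 scores printed above and below; the shaded band is 200 bp to each side. The pairs at Eya2, Six4 and Eya4 are 9, 35 and 60 bp apart, and the outer group of Eya4 has its Tbx4 summits 459 and 954 bp away.

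Eya3, which is widely expressed and acts in the DNA damage response, had no site of either factor in its domain of 142 kb between Ptafr and Xkr8. Of genes with domains of 100 to 200 kb, 17.9% had a Tbx4 site and 5.70% a Hoxc10 site. Both lists hold only sites that passed the authors' selection, so weaker binding at Eya3 may have been left out.

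Domain length bears on these counts. Of the 2005 genes with a domain of 500 kb or more, 53.1% had a Tbx4 site and 34.6% a Hoxc10 site, with means of 1.59 and 0.696 sites. Eya1 and Eya4 are the members in this class, and their 7 and 10 Tbx4 sites compare with that mean. Of the 2719 genes with domains of 200 to 500 kb, 34.9% had a Tbx4 site and the mean was 0.614, against 6 sites each at Six2 and Eya2 and 1 at Six3. Summed over the 9 domains (3.18 Mb) there were 10.7 Tbx4 and 2.83 Hoxc10 sites per Mb. Over all domains together, with overlaps merged, the values were 1.80 and 0.604 per Mb. In the sums for the 9 genes and for the Six-family genes, the gap of 36.5 kb between Six2 and Six3 was counted for both genes. The 5 Six-family genes had 14.5 Tbx4 and 1.32 Hoxc10 sites per Mb, and the 4 Eya genes 9.49 and 3.30. The single Hoxc10 site of the Six-family genes is too few to rank the families.

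**Figure D3:**
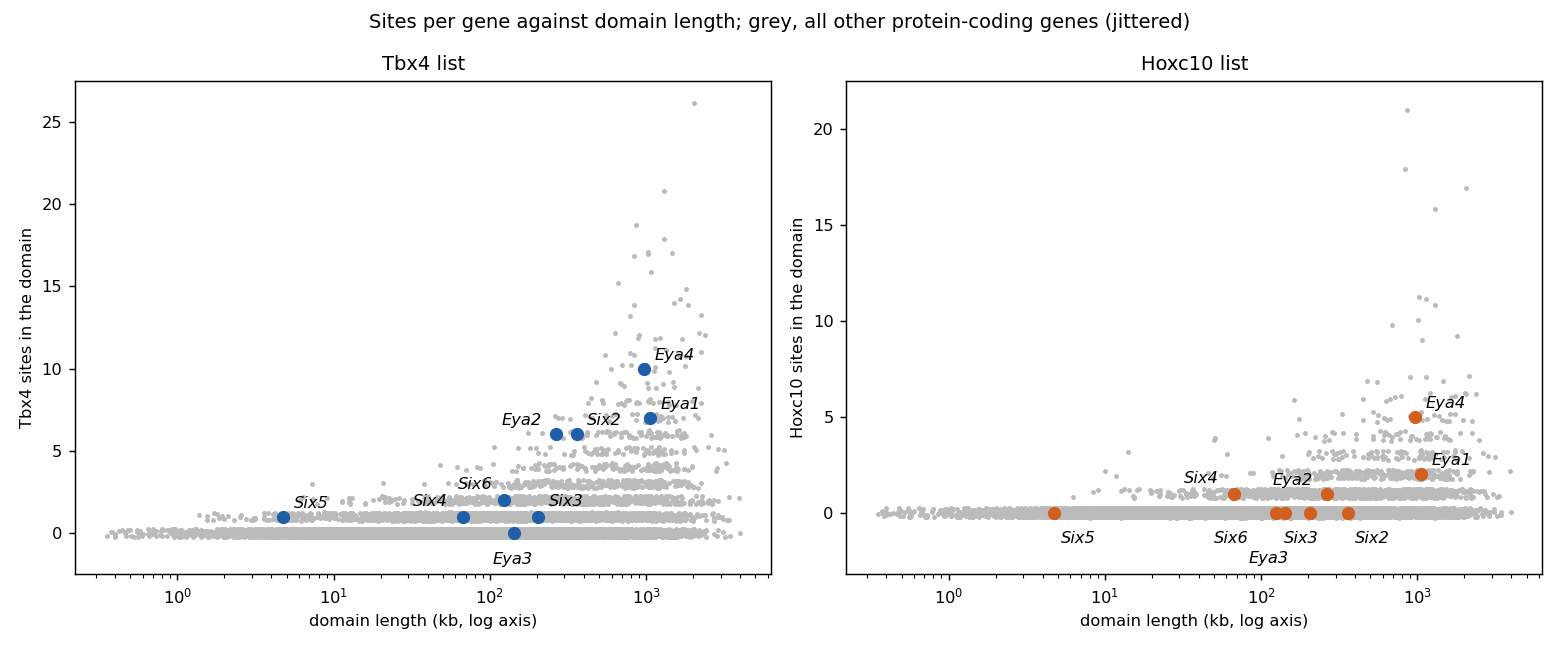
Number of Tbx4 sites (left) and Hoxc10 sites (right) per gene against domain length in kb on a log axis; coloured points are the 9 genes and grey points the other protein-coding genes, jittered vertically. Eya4, Eya1, Six2 and Eya2 lie in the upper part of the Tbx4 cloud at their lengths, with 10, 7, 6 and 6 sites.

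The 34 Tbx4 sites had a median score of 4.46, from 1.63 to 38.86, beside 3.67 for the list, and 18 of them were above the list median. The upper quartile of the list begins at 7.14, and 10 of the sites reached it: 3 at Eya2, 2 each at Six2, Eya1 and Eya4, and 1 at Six4. The 9 Hoxc10 sites had a median of 7.72, the same as their list, from 2.2 to 11.45. None of them reached the upper quartile, which begins at 12.99. Only Tbx4 sites of these genes thus reached the upper quartile of their own list. The lists differ in size and in the share of numbered peaks they keep, so their quartiles are not a common measure of strength.

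**Figure D4:**
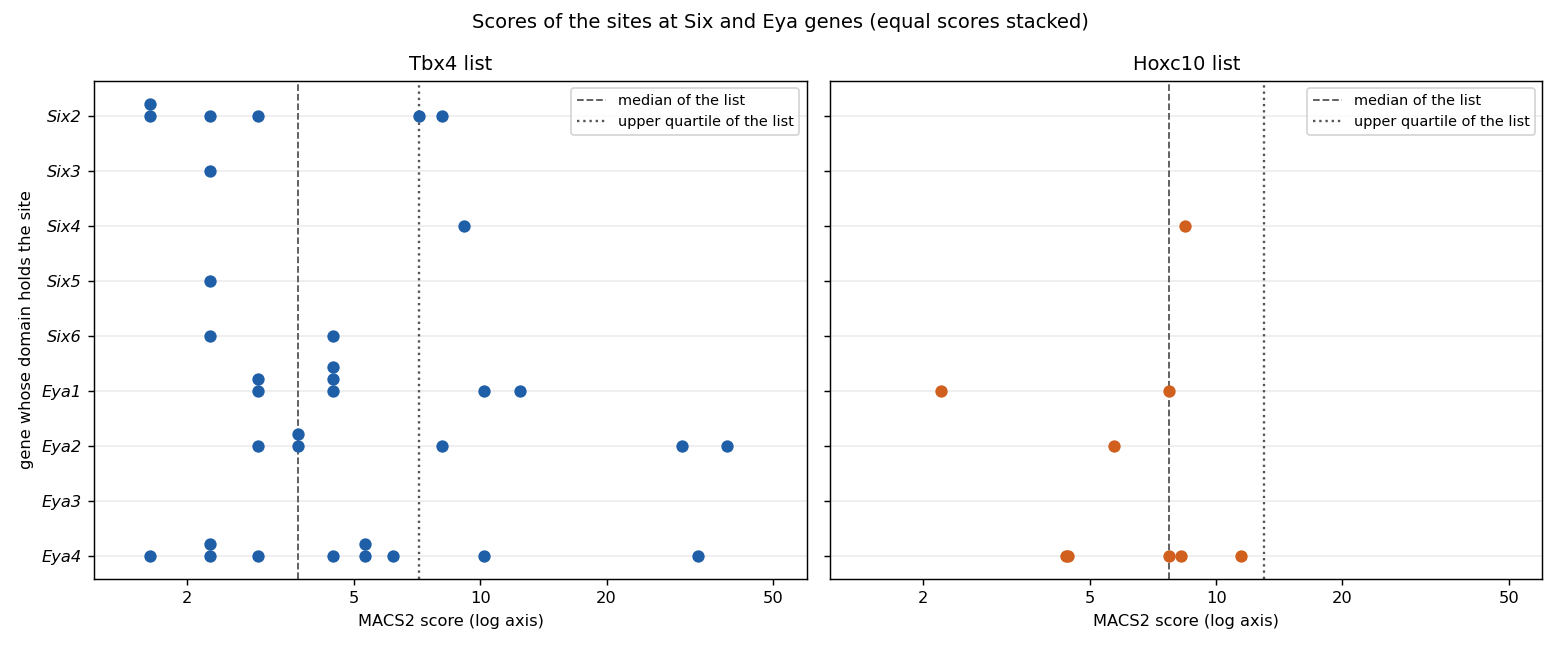
MACS2 scores (log x axis) of the Tbx4 sites (left) and Hoxc10 sites (right) at each gene, equal scores stacked; the dashed and dotted lines are the median and the upper quartile of the whole list (3.67 and 7.14 for Tbx4, 7.72 and 12.99 for Hoxc10). The 3 highest Tbx4 sites belong to Eya2 and Eya4, and no Hoxc10 site passes the dotted line.

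Co-binding at these genes was about as frequent as in the whole lists. Of the Tbx4 sites 3 of 34 (8.82%) had a Hoxc10 partner, beside 10.9% of the list, and of the Hoxc10 sites 3 of 9 (33.3%), beside 32.1%. The sites lay inside the gene in 8 of 34 cases for Tbx4 and 1 of 9 for Hoxc10, that of Six4. In the whole lists 46.5% of Tbx4 and 38.9% of Hoxc10 sites were inside some gene. Here the rule itself shapes the share, because sites inside neighbouring genes were not taken in. By distance, 3 Tbx4 sites lay outside but within 10 kb of their gene, 9 at 10 to 100 kb and 14 farther away, and the corresponding numbers of Hoxc10 sites were 0, 5 and 3. Only 3 Tbx4 sites, those next to Six2, Six5 and the downstream end of Eya4, had any end of a protein-coding gene no more than 1 kb away. That is 8.82% of them, beside 12.8% of the list, and no Hoxc10 site was so close.

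The peak names carry MACS2's running numbers, which rise with position on all 21 chromosomes, so they show where numbered peaks were not kept. The Tbx4 list holds 10.6% of its numbers and the Hoxc10 list 40.1%. Between the outermost Tbx4 sites of Eya2 all 6 numbers were in the list, and at Six2 there were 6 of 8. At Eya1 it was 7 of 17 and at Eya4 10 of 28. The 5 Hoxc10 sites of Eya4 and the 2 of Eya1 had consecutive numbers. Each of these stretches starts and ends at a listed site, which raises its share. The sources used here do not say why the other numbers were left out.

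A further 22 genes of the network were taken from a list of Pax, Dach, Ski and Sall genes, partners and known targets. Of these, 11 had a Tbx4 site, 7 a Hoxc10 site and 2 a co-bound pair. Over all protein-coding genes the shares were 17.2%, 6.83% and 2.66%. The median domain of the 22 genes was 275 kb, beside 67.3 kb for all genes. Among genes with domains of 200 to 500 kb the shares were 34.9%, 16.0% and 6.40%. The 22 genes had a median count of 0.5 Tbx4 and 0 Hoxc10 sites, against 0 for each over all genes. Osr1 acts with Eya1 in the early kidney and marks limb connective tissue. Its domain of 1334 kb had 11 Tbx4 and 4 Hoxc10 sites with 1 co-bound pair, and its highest Hoxc10 score was 104.02. Pax1, a factor of the sclerotome and the shoulder girdle, had 3 and 3 with 1 co-bound in a domain of 847 kb. Dach1, a corepressor partner of Six-family and Eya proteins, had 3 Tbx4 sites (highest score 6.19) and 2 Hoxc10 sites (highest 9.16) in a domain of 2248 kb, and its relative Dach2 had none. Sall1, a zinc finger factor of kidney and limb, had 5 and 1 in a domain of 1292 kb. For all genes with domains of 500 kb or more the means were 1.59 Tbx4 and 0.696 Hoxc10 sites. The muscle genes Myf5, Myod1, Myog, Lbx1, Met and Pax7 had no site of either factor, and Pax3 had 1 of each. Having no site is common, since 17718 of all 21883 protein-coding genes had neither factor. Myf5, Myod1 and Myog also have short domains of 67.7, 84.8 and 61.3 kb. A domain ends at the neighbouring gene, so distant elements beyond a neighbour were not counted.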

How the data were processed

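Both deposited files are headerless lists of 1-bp peak summits with the authors' MACS2 score on a −log10 scale. Nothing in the sources states which of p-values or q-values the scores were made from. Per the submitters' processing notes, Bowtie2 2.2.6, MACS2 2.1.1.20160309 and HOMER were used on mm10. The control library and the selection of the deposited sites are not given either. Positions are 1-based, read as BED ends.

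Genes and promoters came from RefSeq tables of GRCm38.p6. Gene records there give no exons, so exons and introns were not told apart, and no genome sequence was used. Domains, counts and distances were computed with Python 3.11.15 and pandas 2.3.3, and the counting was tested on simulated data. The 9 genes and the network list were chosen with earlier results of these data known. The text names all 9 genes, neighbours across a gap that holds a site, every co-bound pair, each gene's highest-scoring site of each factor, and network genes with at least 3 sites of 1 factor or a co-bound pair. Other sites and genes were named after their values were seen. The alternatives changed the reach of a domain, the score threshold and the co-binding distance.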

Additional observations from a re-analysis of the deposited data

How the results depend on the processing

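The counts depended on both the reach of a domain and the score threshold. With at most 100 kb from the gene 20 of the 34 Tbx4 sites were counted, and with each site given to the nearest gene 21. When domains were cut to 5 kb on both sides of the gene, there were 10 Tbx4 sites, and 1 Hoxc10 site, which was the co-bound site, at 1 gene. With 500 kb to each side, whatever genes lie there, there were 55 Tbx4 and 17 Hoxc10 sites, 7 genes with a Hoxc10 site and 5 co-bound Hoxc10 sites. A limit of 500 kb in place of 1 Mb could change none of the 6 summed counts. The longest gap of the 9 genes was 467 kb, at Eya1, so the domains stayed the same. At scores of at least the list median, 20 Tbx4 and 5 Hoxc10 sites were left. Among the 25% highest sites of each list there were 10 Tbx4 sites at 5 genes and 0 Hoxc10 sites and co-bound pairs. The 1614 highest Tbx4 sites left 13 at 5 genes. This cut fell among 371 sites tied at a score of 5.3, which were taken in order of running number. The Eya4 sites of 5.3 were kept by that order and not by their score. Co-binding distances of 50 to 1000 bp gave 2 to 4 co-bound Hoxc10 sites. Of 252 recomputed counts for single genes, 184 stayed within 1.5 times and 68 moved. Counts of 0 that stayed at 0 are among the 184, so that number does not measure how stable the counts were. No value has a replicate error and depth is unknown, so what these lists leave out cannot be judged.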

Other observations

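Several sites near these genes lay beyond a neighbouring gene and belong to no domain described above. Within 500 kb of Six4, on the side of Mnat1, were 9 further Tbx4 sites with scores of 2.26 to 17.15 and 5 Hoxc10 sites of 3.26 to 9.91. They included co-bound pairs 253.8 and 407.6 kb from Six4. The first had a Tbx4 summit of 17.15 at 73367875 and a Hoxc10 summit of 4.43 at 183 bp, and the second a Tbx4 summit of 5.3 at 73521610 and a Hoxc10 summit of 4.43 at 108 bp. A Tbx4 site of 5.3 and a Hoxc10 site of 3.26 inside Mnat1 were the nearest, at 92.4 and 40.3 kb. Of these, 5 Tbx4 and 2 Hoxc10 sites with 1 of the pairs also lay within 500 kb of Six6.

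Eya2 had 6 further Tbx4 sites (1.63 to 12.42) and 2 Hoxc10 sites (10.67 and 9.16) within 500 kb, the nearest 259.6 kb away and none co-bound. Eya3, without a site in its own domain, had 4 Tbx4 sites within 500 kb, with scores of 2.26 to 6.19 and the nearest 118.4 kb away inside Ppp1r8. For Six2 and Six3 the nearest Hoxc10 site, with a score of 8.43, lay inside Srbd1, 344.1 kb from Six2. Six5 had 2 further Tbx4 sites, both with a score of 2.26, at 103.4 and 464.0 kb. Whether any of these sites acts on one of the 9 genes was not tested.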
